A study of Mus musculus with 14 samples.

Results

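Some PRDM16 binding sites in the mouse ventricle stand close together in dense clusters. A cluster was defined here as a run of at least 4 PRDM16 peaks in which neighbouring summits, the points of highest signal, lie at most 12500 bp apart. Peaks of wild-type (WT) ventricles were used after removal of those that overlap a peak of the Prdm16 conditional knockout by 1 bp or more. Of 17587 WT peaks, 197 were removed in this way and 17390 remained. They formed 12701 chains, of which 369 were dense clusters with 1824 peaks (10.5% of the 17390).

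The study mapped PRDM16 binding by ChIP-seq, in which DNA bound by the protein is pulled down with an antibody and sequenced, in C57BL/6 mouse hearts of embryonic age E13.5 with the atria removed. Its 14 samples are 7 PRDM16 ChIP libraries and 7 inputs. WT hearts, labelled Mock, gave 2 whole-ventricle ChIP libraries and the conditional knockout (Prdm16cKO) gave 1, each from a pool of 3 hearts of 1 genotype. WT left ventricles (LV) and WT right ventricles (RV) gave 2 ChIP libraries each, from pools of 10 to 12 ventricles. All chromatin was crosslinked with EGS (a long-arm crosslinker that joins proteins to each other) and formaldehyde. The Cre line that made the knockout is not named in these sources, so the cells that lost the gene are not known here. Bound chromatin of a whole ventricle comes from all its cells, and fewer cells of a type and less binding per cell cannot be told apart.

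PRDM16 is a DNA-binding zinc-finger protein of the PR-domain family that works with coactivators and corepressors, and it is known for setting the identity of brown fat cells. In the developing heart it is made in ventricular cardiomyocytes of the compact wall, and loss of the human gene has been linked to left ventricular noncompaction, a cardiomyopathy with a thin compact wall and deep trabeculae. Stretches with many bound sites for a tissue's regulators often lie at genes that define the tissue, such as genes of its contractile apparatus and of its transcription factors.

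The promoters shown next are those at which the summit of a clustered peak falls in the window from 250 bases before to 50 bases after an annotated start. They are the 2 with the highest fold enrichment among the sarcomere genes, the cardiac transcription factors, and the genes of calcium handling and ion channels. Sequences are from RefSeq (GRCm38.p6), 5′ to 3′ on the strand of the gene. Single capitals mark the base under the summit. Longer capitals mark a motif core on either strand, with no overlap between cores in these windows. The core searched for T-box proteins was AGGTGT, for TEAD proteins it was GGAATG, for GATA proteins it was AGATAA, and for NKX2 proteins it was AAGTG.
Myl2, chr5:122092939-122093238, + strand: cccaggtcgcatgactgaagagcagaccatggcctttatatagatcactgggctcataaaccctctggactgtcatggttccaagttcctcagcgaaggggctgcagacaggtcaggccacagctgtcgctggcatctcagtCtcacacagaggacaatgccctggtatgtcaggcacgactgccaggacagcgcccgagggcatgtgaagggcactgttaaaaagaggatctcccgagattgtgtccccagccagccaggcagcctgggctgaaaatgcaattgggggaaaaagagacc
Tnnt2, chr1:135836084-135836383, + strand: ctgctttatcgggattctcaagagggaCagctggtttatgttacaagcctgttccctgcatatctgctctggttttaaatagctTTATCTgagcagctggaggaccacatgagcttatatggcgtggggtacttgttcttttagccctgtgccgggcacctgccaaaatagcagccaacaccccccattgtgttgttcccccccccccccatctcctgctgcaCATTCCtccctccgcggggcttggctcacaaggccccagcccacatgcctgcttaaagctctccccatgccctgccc
Nkx2-5, chr17:26841516-26841815, - strand: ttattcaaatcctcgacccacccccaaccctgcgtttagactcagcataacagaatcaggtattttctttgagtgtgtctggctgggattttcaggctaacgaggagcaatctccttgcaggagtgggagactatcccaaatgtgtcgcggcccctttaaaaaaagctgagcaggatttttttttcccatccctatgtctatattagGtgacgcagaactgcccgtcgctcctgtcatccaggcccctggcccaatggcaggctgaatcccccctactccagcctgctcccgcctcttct
Hand2, chr8:57320733-57321032, + strand: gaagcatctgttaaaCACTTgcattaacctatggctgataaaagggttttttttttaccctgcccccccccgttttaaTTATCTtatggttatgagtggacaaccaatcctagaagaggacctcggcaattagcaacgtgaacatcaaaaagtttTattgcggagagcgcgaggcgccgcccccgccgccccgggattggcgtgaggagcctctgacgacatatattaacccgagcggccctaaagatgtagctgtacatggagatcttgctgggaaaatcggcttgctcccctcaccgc
Cacna1c, chr6:119196360-119196659, - strand: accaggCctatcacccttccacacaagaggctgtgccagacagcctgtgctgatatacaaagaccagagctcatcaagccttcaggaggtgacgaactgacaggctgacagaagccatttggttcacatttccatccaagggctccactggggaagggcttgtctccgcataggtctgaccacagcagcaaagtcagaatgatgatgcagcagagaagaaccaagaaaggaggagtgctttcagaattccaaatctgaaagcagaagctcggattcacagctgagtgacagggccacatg
Pln, chr10:53337436-53337735, + strand: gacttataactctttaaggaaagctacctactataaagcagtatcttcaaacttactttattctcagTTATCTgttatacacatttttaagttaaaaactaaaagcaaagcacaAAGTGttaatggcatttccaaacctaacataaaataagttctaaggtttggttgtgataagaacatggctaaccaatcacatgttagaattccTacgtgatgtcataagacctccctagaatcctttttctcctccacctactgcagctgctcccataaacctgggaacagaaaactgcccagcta

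The Tnnt2 window (cardiac troponin T) holds a GATA and a TEAD core, the Hand2 and Pln windows (a chamber transcription factor and phospholamban, the brake of the calcium pump) each hold a GATA and an NKX2 core, and the other 3 windows hold none of the 4. The Myl2 summit lies 108 bases before its annotated start, and the peak has 21.0-fold enrichment, a ratio taken from the deposited peak list. The Cacna1c summit lies 244 bases before an annotated start of that gene, with 21.7-fold enrichment, while the gene body nearest to it by the measure used below is that of Dcp1b. The Pln peak (4.11-fold) has Cep85l as its nearest gene body.

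Of 21263 promoters in the RefSeq table, 147 promoters of 125 genes were overlapped by a clustered peak. A TEAD core was found in 21.1% of these (Wilson 95% interval 15.3 to 28.4), in 15.0% of 1618 promoters overlapped only by other peaks and in 13.6% of all. A T-box core was found in 11.6%, 9.15% and 12.7% of the same sets. GATA cores stood in 9.52%, 6.80% and 9.65%, and NKX2 cores in 42.9%, 38.9% and 45.2%. Median GC content was 61.0% at clustered peaks, 63.0% at other peaks and 56.3% over all promoters. For the T-box, GATA and NKX2 cores, the share over all promoters lay inside the interval of the clustered set, and for TEAD it lay below it; these shares are descriptions of letters in a window.

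Hairpin entries of 5 microRNAs were found inside the spans of 4 clusters. Inside 3 more clusters only entries of mature arms were found. They belong to miR-1a-1 (Gata5 cluster), miR-1903 (Nrp1 cluster, under a peak of 6.48-fold) and miR-7674 (Fam78a cluster). The count of hairpins is thus one of entries found, and hairpins of these microRNAs may lie in the spans too. The Myh6/Myh7 cluster holds the genes of miR-208a and miR-208b, which are carried in introns of the myosin heavy chain genes and are known for their part in myosin switching. Their main arms share 1 seed (bases 2 to 8, in capitals).
miR-208a-3p: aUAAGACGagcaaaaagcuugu
miR-208b-3p: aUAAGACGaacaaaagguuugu
The nearest clustered peaks lie 2367 bp and 1816 bp from these arms, with 4.58-fold and 5.54-fold enrichment, so neither arm lies under a peak.

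Most clusters were short. Of the 369 clusters, 198 had 4 peaks, 132 had 5 or 6, and 39 had 7 or more, up to 19. The distance from first to last summit had a median of 16.2 kb (range 1.2 to 86.1). Over 1455 gaps between neighbouring summits, the median gap was 3574 bp (quartiles 1289.5 and 7249) and 288 gaps (19.8%) were 1000 bp or less. The gaps nearest to the limit inside clusters included 12498 bp at Foxp1 and 12458 bp at Rbpms. The nearest outside were 12535 bp beside Dnajc18, 12585 bp beside Dcp1b and 12600 bp beside Nedd4l. Of 330 knockout peaks, 1 lay in a cluster span. The distances from first to last summit added up to 6.51 Mb over all clusters. WT peaks that overlap a knockout peak had been removed beforehand, so a low count follows in part from the rule.

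**Figure D1:**
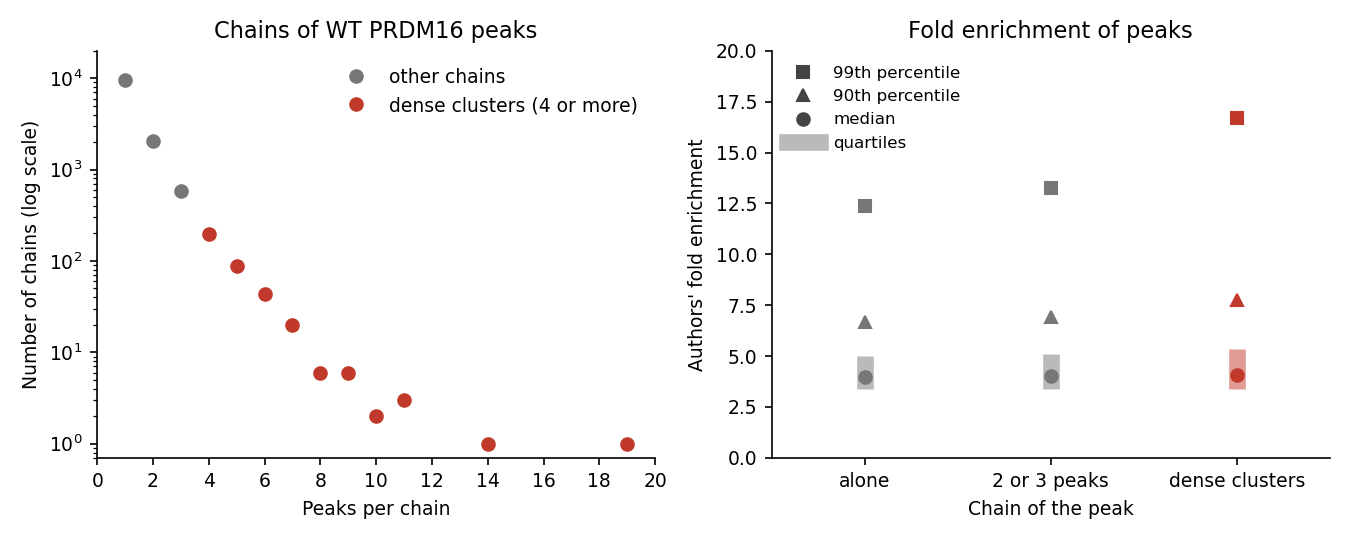
Left, number of chains (log scale) by the number of WT PRDM16 peaks in the chain, with dense clusters in red. Right, the authors' fold enrichment of peaks that stand alone, in chains of 2 or 3 and in dense clusters. The medians lie close together (4.08 in clusters), and the 99th percentile is highest in clusters (16.7).

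The enrichment of clustered peaks was close to that of other peaks at the median and higher in its upper tail. The authors' fold enrichment, the ratio of ChIP signal to background at a summit, had a median of 4.08 (quartiles 3.39 and 5.34) in clusters and 4.01 (3.39 and 5.04) at the 15566 other peaks. At least 10-fold enrichment was found at 95 of 1824 clustered peaks (5.21%, Wilson 95% interval 4.28 to 6.33) and 406 of 15566 others (2.61%, 2.37 to 2.87). Among these others, peaks in chains of 2 or 3 had a share of 3.18%. Of the 1000 strongest peaks, 169 were clustered (16.9%), and of the 100 strongest, 28 were. These intervals cover counting error only, and peaks of 1 cluster are not independent. Within a cluster, the strongest peak had a median of 1.56 times the cluster's median enrichment (range 1.02 to 7.0), and in 111 clusters (30.1%) it had at least 2 times. The median width was 324 bp for clustered and 295 bp for other peaks.

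In most clusters all peaks shared 1 nearest gene, at whatever distance, and a smaller part of the clusters lay inside that gene. Peaks were assigned to the protein-coding gene body nearest to the summit in the RefSeq table for GRCm38.p6. In 299 clusters (81.0%) all peaks had 1 nearest gene, and 162 (43.9%) lay wholly inside 1 gene. The rule joins neighbouring peaks, so a shared nearest gene follows in part from it, and these 2 shares have no comparison set. Of clustered peaks, 1205 (66.1%, interval 63.9 to 68.2) were inside a gene body, against 58.5% of other peaks. A distance of more than 50000 bp from any gene was found for 127 clustered peaks (6.96%) and for 16.2% of others. Within 1000 bp of a gene end lay 264 clustered peaks (14.5%, interval 12.9 to 16.2) and 16.8% of others, and 149 clusters (40.4%) had such a peak. This order depends on the definition: with summits at most 5000 bp apart the clustered share was 19.8% (interval 16.7 to 23.3), above the 16.5% of all peaks. Peaks in chains of 2 or 3 lay between clustered peaks and the whole set of others. Of them, 61.2% were inside a gene body, 13.1% beyond 50000 bp and 15.0% within 1000 bp of a gene end. The genes nearest to clustered peaks had a median length of 43.6 kb, against 40.0 kb for genes with other peaks only and 17.2 kb for all genes.

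The longest cluster covered Rbm20, which encodes a splicing factor for titin and other sarcomere transcripts and is mutated in dilated cardiomyopathy. It held 19 peaks over 86087 bp (chr19:53653876-53740308), 17 of them in the gene body, with 2.74-fold to 11.1-fold enrichment. Another cluster of 6 peaks stood further along the gene (chr19:53789129-53810414) and reached 12.8-fold. Rbm20 thus had 25 clustered peaks of its 28. It was 1 of 20 genes that named 2 clusters, where a cluster is named after the gene nearest to most of its peaks. Others were Tns1 (15 peaks), Unc5b (14), Kcnq1 (10), Jph2 (9), Prox1 (9) and Hand2 (8).

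The cluster next in size spanned the paired genes of the cardiac myosin heavy chains, Myh6 and Myh7, with 14 peaks (chr14:54946497-55005817). Its strongest peak, 2340 bp outside the Myh7 body, had 23.5-fold enrichment, and a peak 856 bp outside Myh6 had 11.8-fold. The other 12 peaks ranged from 2.70-fold to 7.38-fold. Clusters of 11 peaks lay inside Tns1 (tensin 1, a focal adhesion protein), inside Gse1 and between Lrrc74a and Irf2bpl. Clusters of 10 lay inside Shb, an adaptor of receptor signalling, and around Adamtsl4 and Mcl1, an inhibitor of cell death. There were 6 clusters of 9: inside Pakap, inside Cuedc1, across Rec114 and Hcn4 (the pacemaker channel gene), and at Nkx2-5, H1f3 and Unc5b.

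**Figure D2:**
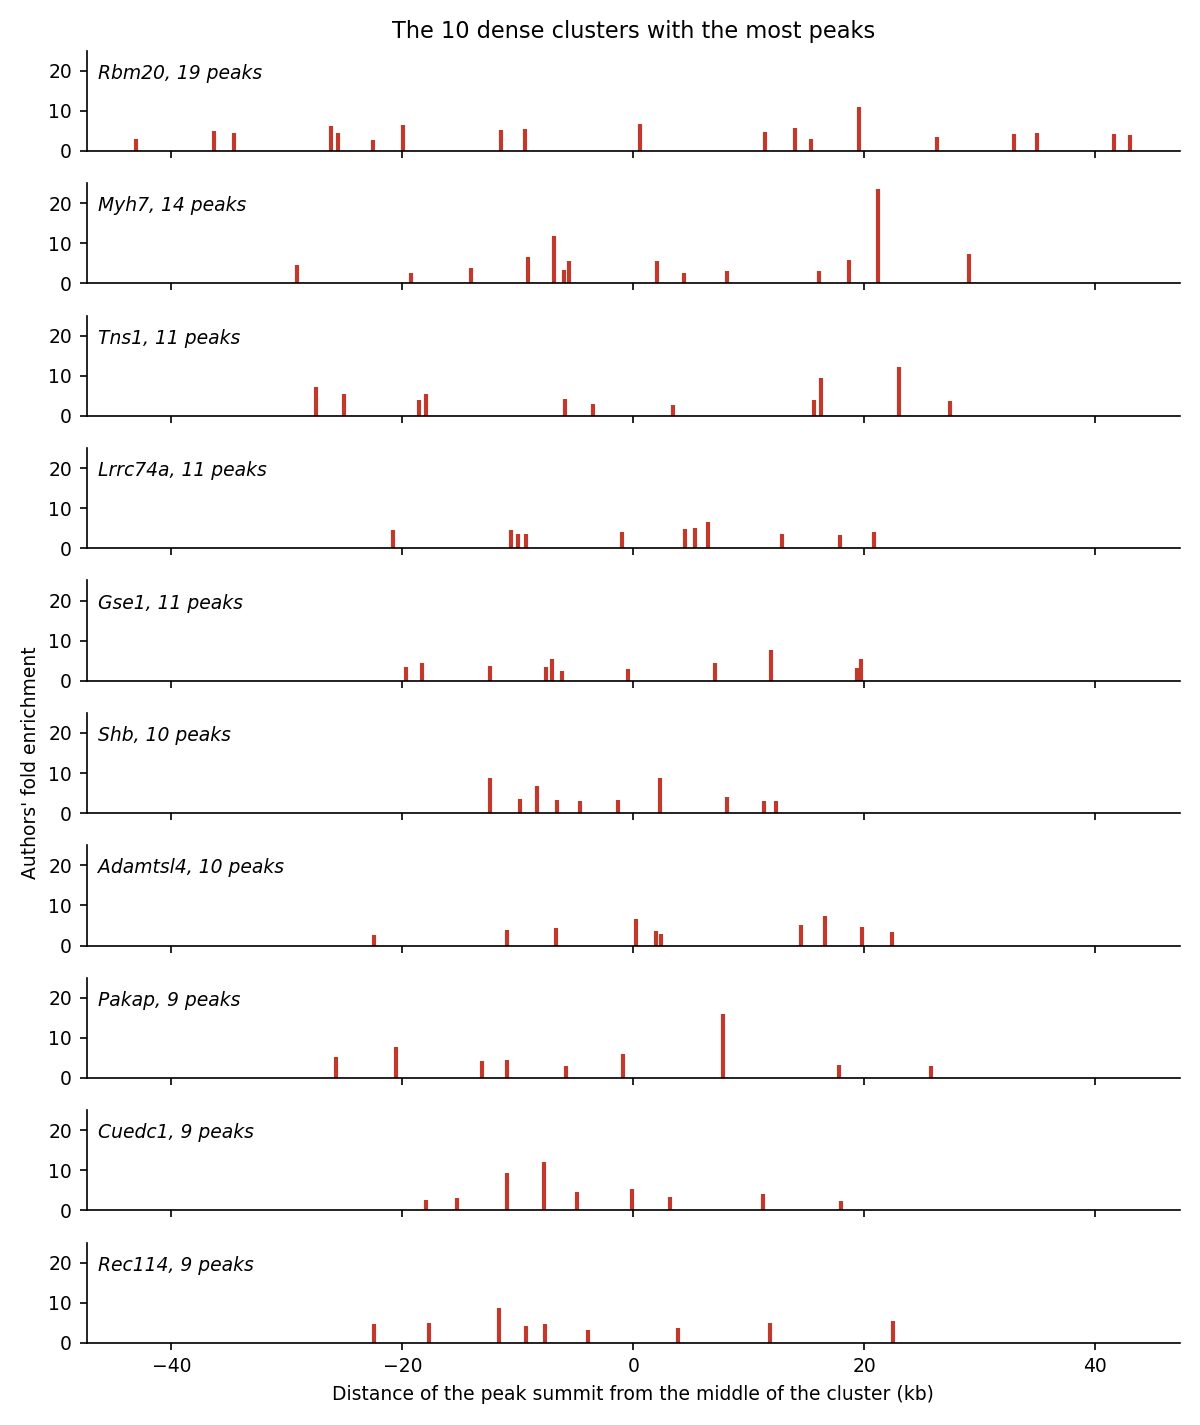
Maps of the 10 dense clusters with the most peaks, with ties ordered by summed fold enrichment. Each bar is a peak, placed by the distance of its summit from the middle of the cluster (kb), and its height is the authors' fold enrichment. The Rbm20 cluster is the longest and reaches 11.1-fold, and the Myh7 cluster has 1 peak at 23.5-fold.

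By mean enrichment per peak the leading clusters were others. Near Herpud2, 5 peaks at least 133758 bp from any gene averaged 10.5-fold, with summits of 20.2-fold and 17.1-fold. At Ankrd1, which encodes a stress-responsive repeat protein of the sarcomere, 5 peaks averaged 10.4-fold with 2 peaks of 20.7-fold (401 bp from a gene end) and 21.7-fold. Clusters at Ninj2 (9.29-fold), Myl2 (8.45-fold) and Dcp1b (8.32-fold, with the Cacna1c promoter printed above) followed. By spacing, the smallest median gaps were 374 bp at Marcks, 378 bp at Hspb3, 415 bp at Col13a1, 435 bp at Extl2 and 511 bp at Samd4. The 4 summits at Col13a1 stood within 1201 bp. A small median gap can hide a wide one, as the largest gap was 4017 bp at Marcks and 4308 bp at Extl2.

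Several clusters followed the replication-dependent histone genes on chromosome 13. The cluster named for H1f3 had 9 peaks at 9 histone genes, 1 peak a gene, and 8 of the peaks lay within 1000 bp of a gene end. Clusters at H2bc14 (6 peaks), H2bc11 (5) and H1f5 (4) were each spread over 4 histone genes. These genes belong to several histone classes, and genes of 1 class can be near-identical in part of their sequence. How reads that match several genes were handled is not stated in the labels or file headers, so the values of these clusters are uncertain.

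Genes of 16 lists were looked up at the clusters. Over all 21887 protein-coding genes, 2.01% were nearest to a clustered peak and 32.3% to any peak. Among the genes with a peak, 6.21% were nearest to a clustered one. The listed heart genes had a median length of 61.8 kb, against 17.2 kb for all genes, and the counts were not adjusted for length. Of 32 sarcomere genes, 17 were at a cluster and 31 had a peak. Apart from Myh7 and Myl2 (ventricular regulatory light chain, 7 of 7 peaks clustered), these included Actc1 (cardiac actin, 7 peaks, up to 13.1-fold), Csrp3 (a Z-disc sensor protein, 6 peaks, up to 7.28-fold) and Ankrd1 (5 of 12 peaks clustered). Tnnt2, Tnni3, Tnnc1, Tpm1, Ldb3, Xirp1 and Flnc were further members. Among the 15 sarcomere genes with no clustered peak were Ttn (14.7-fold at its strongest of 5 peaks), Actn2 and Mybpc3.

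Of 18 genes of noncompaction cardiomyopathy, 9 were at a cluster, with Rbm20, Myh7, Nkx2-5, Actc1 and Tbx20 holding most peaks. This list shares members with the sarcomere list and the list of transcription factors. Of 30 cardiac transcription factors, 10 were at a cluster and 29 had a peak. Nkx2-5, a homeobox factor of early heart muscle, had all 9 of its peaks in 1 cluster (2.91-fold to 9.11-fold). Hand2 had 8 of 12 peaks in 2 clusters, 1 of them at the promoter printed above and the other at least 106930 bp from the gene. Tbx20 had 7 of 9 (up to 4.68-fold in the cluster and 14.6-fold outside it), Tead1, a Hippo pathway factor, had 6 of 14, and Foxp1 had 5 of 12. Prdm16 itself had 18 peaks, up to 25.7-fold, and none was in a cluster. Gata4, Gata6 and Tbx5 also had peaks (8, 12 and 9) and no clustered one.

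Of 26 TGF-beta and BMP pathway genes, 8 were at a cluster: the ligand genes Tgfb2, Bmp10 and Bmp5, the coreceptor gene Tgfbr3, the transducer gene Smad3, the inhibitor genes Smad6 and Smad7, and Ski, a corepressor of SMADs. Tgfb2 reached 16.8-fold at a peak 35516 bp from the gene. Tgfbr3 reached 15.7-fold in a cluster with 0 peaks inside a gene body. With only nearest genes within 10000 bp counted, 6 of the 26 were at a cluster. Of 22 genes of calcium handling and ion channels, 5 were at a cluster: Kcnq1 (10 of 15 peaks), Jph2 (junctophilin 2, which ties the calcium store to the cell membrane, 9 of 9, up to 17.2-fold), Cacna1c (6 of 13), Kcnh2 (5 of 7, up to 15.9-fold) and Hcn4 (3 of 3). Ryr2 (25.2-fold) and Atp2a2 (22.8-fold), the calcium release channel and the calcium pump, had strong peaks outside clusters.

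Of 14 trabecular genes, 3 were at a cluster: Gja5, the gap junction gene of trabeculae and conducting cells (6 of 6 peaks, up to 13.7-fold), Bmp10 (4 of 4, up to 10.7-fold) and Nppb (1 of 2, 12.0-fold). Of 15 compact myocardium genes, 2 were, Tbx20 and Casz1. Of 13 genes of left or right ventricle identity, 3 were: Hand2, Gja5 and Irx4. Of 22 regulators of energy metabolism, 5 were (Hk1, Esrrg, Ppargc1b, Hk2 and Pfkp). Of 25 coregulators and chromatin factors, 3 were (Hdac5, Tle3 and Arid1a), which is 13.0% of those with a peak. Of 19 Notch genes, 1 was (Hes1, 7 of 11 peaks, at most 4.17-fold in the cluster). That is 7.69% of the 13 Notch genes with a peak, near the 6.21% over all genes with a peak.

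Markers of other cell types were counted in the same way. Of 88 genes marking neurons, endothelium and endocardium, epicardium and mesenchyme, blood cells and hepatocytes, 36 had at least 1 peak and 0 had a clustered one. Over all genes 2.01% had a clustered peak, and 6.21% of those with a peak did, so that a count of 0 in lists of this size is near the background. By list, 15 of 25 neuronal genes had a peak, 11 of 17 endothelial, 7 of 16 epicardial and mesenchymal, 2 of 15 of blood cells and 1 of 15 of hepatocytes. The count of 0 depends on the definition: with summits up to 25000 bp apart 2 neuronal genes were at a cluster, and with any gene within 50000 bp counted, 1 endothelial gene was. The median gene length was 36.0 kb over these lists and 61.8 kb over the 205 heart genes. A peak near a gene is no measure of its expression, and its link to that gene was not tested.

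**Figure D3:**
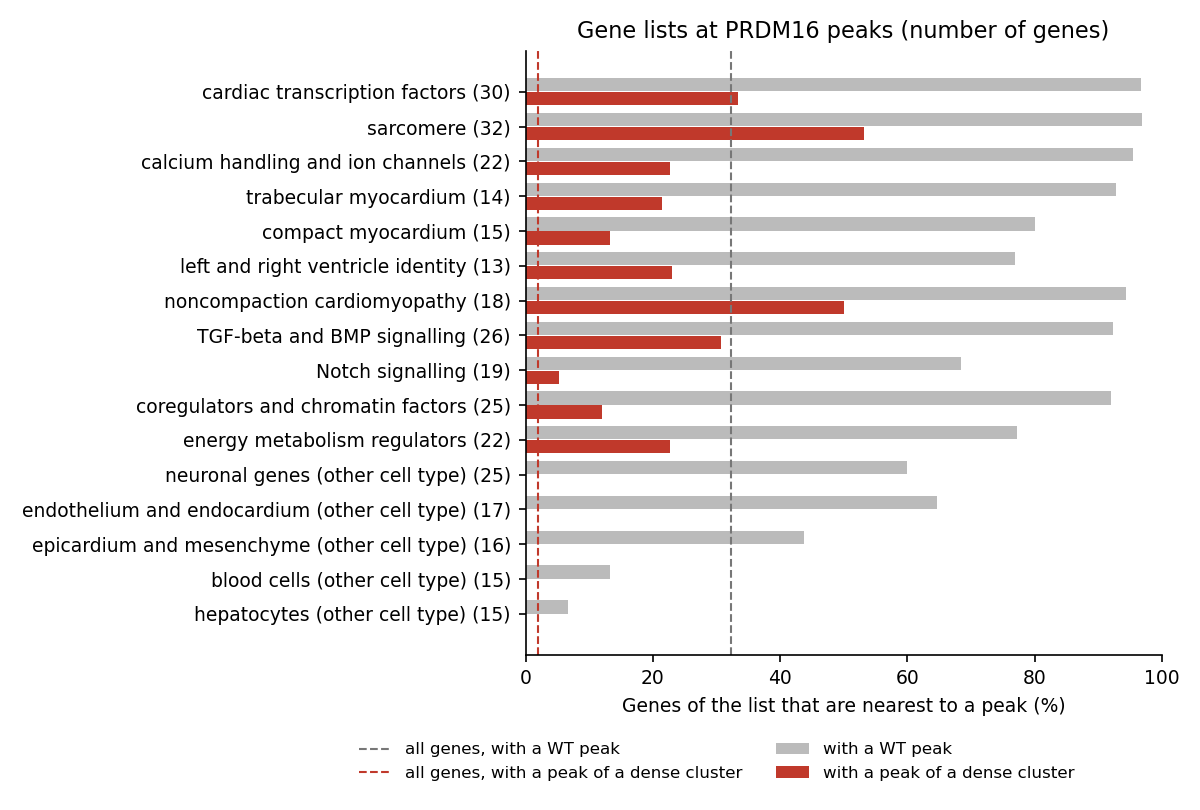
Share of the genes of each list (%) that are nearest to a WT PRDM16 peak (grey) and to a peak of a dense cluster (red), with the number of genes in parentheses. Dashed lines give the shares over all protein-coding genes (32.3% and 2.01%). The 5 lists of other cell types have no red bar, and the sarcomere list has 17 of 32 genes at a cluster.

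Whole reads were recovered for each LV and RV library from the deposited values. Within WT peaks, LV libraries A and B had 330443 and 184244 reads and RV libraries A and B had 281797 and 267808. In each ventricle, A is the library in which 1 read is worth less after normalization. The labels' replicate numbers could not be matched to the letters. Clustered peaks held 11.0%, 9.05%, 11.0% and 9.68% of these reads, with a median of 79, 36, 67 and 57 reads per cluster. The shares of LV and RV overlapped, with library B, the one with fewer reads, lower than library A in each ventricle. Per the labels, the libraries came from pools of separate tissue.

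LV and RV were compared by limma on the reads summed over each cluster, with an adjusted p of 0.05 as threshold. Of 369 clusters 0 were called, beside 0.0866% of all 12701 chains (11 calls, 7 at single peaks and 4 in chains of 2 or 3). An unadjusted p under 0.05 was found at 17 clusters (4.61%), 8 with higher LV and 9 with higher RV reads, beside 6.78% of all chains. The log2 ratio of RV over LV had a median of 0.02 and an SD of 0.27 over clusters (range -0.69 to 0.86), about as large as the median standard error (SE) of 0.26. For 320 clusters the 95% interval of this ratio lay within 1 of 0 on the log2 scale, that is, within a 2-fold difference either way. Over clusters, LV library A over B had an SD of 0.40 on the log2 scale, and RV library A over B 0.34.

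Read sums of the ventricles did not overlap at 56 clusters with both LV libraries above both RV libraries (15.2%) and at 74 with the reverse (20.1%), beside 18.1% of all chains in each direction. Per single peak, with limma 0 of 1824 clustered peaks were called (0.0284% of all peaks) and 110 had an unadjusted p under 0.05 (6.03%, beside 6.32%). In the authors' deposited table none (0) of the clustered peaks had an adjusted p under 0.05 (0% of all peaks), 7 had an unadjusted p under 0.05 (0.384%, beside 0.483%), and 157 had a log2 ratio of at least 1 either way (8.61%, beside 10.6%).

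Most clusters held peaks that leaned either way. In 21 clusters every peak was higher in LV in the authors' deposited table, and in 19 every peak was higher in RV. In 329 the peaks were mixed. Of all clustered peaks, 888 were higher in LV and 936 in RV, so mixed sides would be common if sides were random. Over all WT peaks the median was 10 and 6 reads in LV libraries A and B. It was 9 and 8 in RV libraries A and B, so the side of a single peak is uncertain. Whether peaks of 1 cluster differ in their ratio was not tested.

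The myosin cluster was level between ventricles. Normalized reads summed over the Myh6/Myh7 cluster were 547 and 409 in the LV libraries and 533 and 421 in the RV libraries. The ventricles overlapped, and limma gave a log2 RV over LV of 0.00 (SE 0.23, adjusted p = 0.998). The Rbm20 cluster of 19 peaks had 276 and 255 normalized reads in LV and 285 and 256 in RV, again with overlap (log2 0.02, SE 0.22, limma adjusted p = 0.995).

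The Myl2 cluster had 351 and 280 normalized reads in LV and 288 and 238 in RV. All 7 peaks were higher in LV in the authors' deposited table, but the library sums overlapped (log2 -0.26, SE 0.23, limma adjusted p = 0.874). The Ankrd1 cluster had 229 and 164 normalized reads in LV and 298 and 229 in RV. Both RV sums were above both LV sums by a narrow margin for the closest pair (log2 0.43, SE 0.24, limma adjusted p = 0.761). The Actc1 cluster overlapped, with 4 of 7 peaks higher in RV (log2 0.15, SE 0.23, limma adjusted p = 0.943).

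Among transcription factors, the Nkx2-5 cluster had both LV sums above both RV sums (log2 -0.33, SE 0.23, limma adjusted p = 0.821). Of its 9 peaks, 6 were higher in LV in the authors' deposited table and 3 in RV. Its promoter peak, whose sequence is printed above, had 35 and 16 reads in the LV libraries and 13 and 12 in the RV libraries before normalization. In the authors' deposited table its log2 was -1.08. Like all clustered peaks, it was not called by limma or in that table. The Tbx20 cluster overlapped (log2 0.28, SE 0.27, limma adjusted p = 0.887). All 4 peaks of the Irx4 cluster were higher in RV in the authors' deposited table, and both RV sums were above both LV sums (log2 0.28, SE 0.27, limma adjusted p = 0.887). Irx4 is a ventricular homeobox factor. The 11 clusters with peaks at listed transcription factors had a median log2 of 0.09, with 4 higher in LV and 7 in RV and 0 with an unadjusted p under 0.05.

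The 3 clusters with trabecular genes were all higher in LV by the fitted ratio, at log2 -0.31 (Gja5), -0.28 (Bmp10) and -0.16 (Nppb, in the cluster named for 2510039O18Rik). All 6 peaks of the Gja5 cluster were higher in LV in the authors' deposited table. The smallest limma adjusted p of the 3 was 0.836, and over all clusters 172 of 369 were higher in LV. The 16 clusters with sarcomere genes had a median log2 of 0.10, with 5 higher in LV, and the 8 with TGF-beta and BMP genes had 0.16, with 2 higher in LV.

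**Figure D4:**
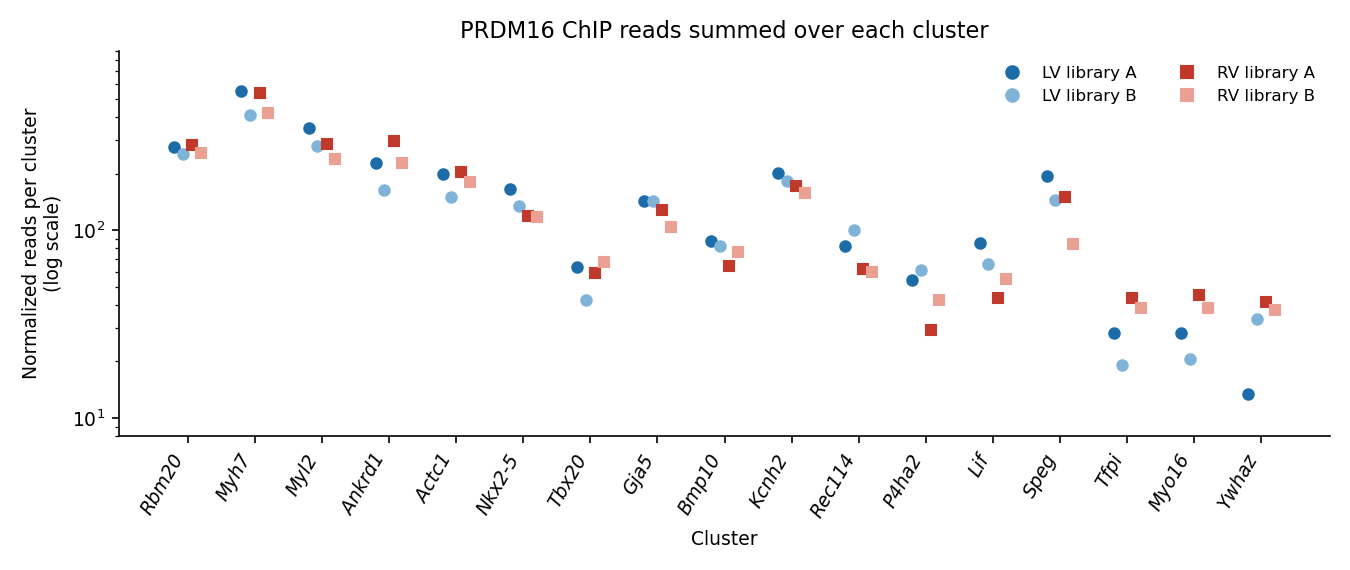
Normalized PRDM16 ChIP reads summed over 17 of the named clusters (log scale), with LV libraries A and B as circles and RV libraries A and B as squares. Libraries of 1 ventricle lie further apart than the ventricles do at Myh7 and Rbm20, and the ventricles separate at Rec114, P4ha2, Lif, Tfpi and Myo16, among others.

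The clusters with the smallest p on the LV side were at P4ha2, Lif, Rec114 with Hcn4, Speg and Spata13. Clusters of both sides were picked by these same reads, so the side of their single peaks is no separate evidence. Peaks of 1 cluster also share the same libraries. The P4ha2 cluster, at a collagen prolyl hydroxylase gene, had 54.3 and 61.5 normalized reads in LV and 29.4 and 42.4 in RV (log2 -0.69, 95% interval -1.26 to -0.13). All 5 peaks were higher in LV in the authors' deposited table, and the limma adjusted p was 0.651. The Lif cluster lay outside gene bodies. Its 4 peaks nearest to Lif, a cytokine gene of the interleukin-6 family, were 22451 to 30772 bp from that gene. Sums of this cluster were 85.6 and 65.9 in LV and 43.3 and 55.0 in RV (log2 -0.61, limma adjusted p = 0.699).

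The Rec114/Hcn4 cluster had 82.6 and 99.6 normalized reads in LV and 62.4 and 59.8 in RV, and each of its 9 peaks was higher in LV in the authors' deposited table. The 6 peaks nearest to Rec114 had log2 values down to -2.20, while the 3 inside Hcn4 had -0.34, -0.04 and -0.01. The fitted ratio was -0.56 (SE 0.25, limma adjusted p = 0.707). At Speg, a kinase gene of striated muscle, the ratio was -0.58 with overlapping libraries, and at Spata13 it was -0.65. The Speg ratio was -0.16 without RV library B, -0.99 without RV library A and -0.37 without LV library A, and the P4ha2 ratio was -0.44 without RV library A.

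On the RV side the smallest p values were at Tfpi, Myo16, Ywhaz, Wbp1l and Shisal2a. The clusters named for Myo16, Ywhaz and Shisal2a had 0 peaks inside a gene body. The Tfpi cluster, at the gene of a coagulation inhibitor made by endothelium, had 28.3 and 19.0 normalized reads in LV and 43.3 and 38.6 in RV (log2 0.79, 95% interval 0.18 to 1.40). Its limma adjusted p of 0.628 was the smallest of all clusters. The Myo16 cluster had 28.3 and 20.5 in LV and 45.0 and 38.6 in RV, with all 4 peaks higher in RV in the authors' deposited table (log2 0.77, limma adjusted p = 0.637). The Ywhaz cluster had 13.4 and 33.7 in LV and 41.6 and 37.6 in RV (log2 0.86, limma adjusted p = 0.651). Without LV library B, which leaves LV library A alone in its group and assumes that it varies like the others, Ywhaz was called with a log2 of 1.49 and an adjusted p of 0.0131, while without LV library A its log2 was 0.22 (limma adjusted p = 0.844). Leaving out 1 library also moved the ratio by over 1.5 times at Shisal2a (0.34 without LV library B and 1.39 without LV library A), at Tfpi (0.52 without LV library B) and at Wbp1l (0.47 without RV library A).

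**Figure D5:**
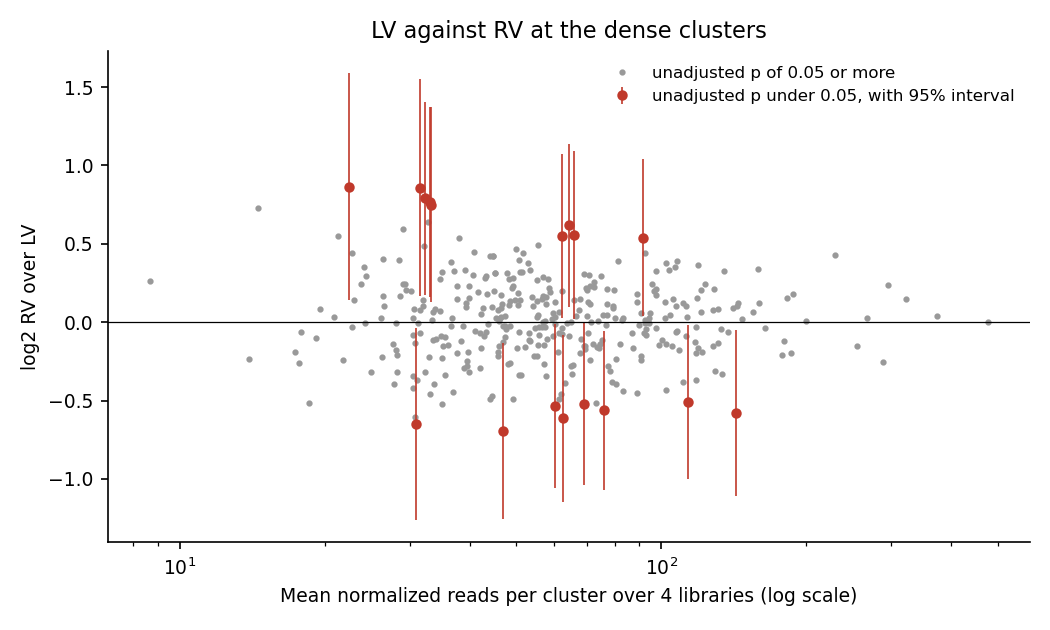
Fitted log2 of RV over LV for each of the 369 dense clusters against its mean normalized reads (log scale). Red points have an unadjusted p under 0.05 and are drawn with 95% intervals, 8 below and 9 above 0. Most clusters lie within 0.5 of 0, and the spread narrows with more reads.

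Of single clustered peaks, the one at Gab1, a docking protein of growth factor receptors, was most one-sided. It had 12 and 7 reads in the LV libraries and 0 in both RV libraries (limma adjusted p = 0.155, and 0.0310 with a pseudocount of 5). The peak at Mical3 had 74 and 33 reads in LV and 34 and 11 in RV (limma adjusted p = 0.274), and the strongest peak of the Speg cluster had 102 and 39 in LV and 41 and 23 in RV (limma adjusted p = 0.393). On the RV side, a peak at Slc2a1, the glucose transporter gene, had 19 and 5 reads in LV and 32 and 26 in RV (limma adjusted p = 0.542). In the last 3 cases LV library A had over 2 times the reads of LV library B, which has fewer reads in all peaks together.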

How the data were processed

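PRDM16 ChIP-seq of mouse ventricles was analysed from the deposited peak lists of WT and Prdm16cKO hearts and the deposited table of LV and RV values. The submitters' processing notes name BWA 0.7.12-r1039, MACS2 2.1.1.20160309, HOMER, DESeq2 and the builds GRCm38 and mm10, with no role or order. Pooling of replicates, filters and the test behind the deposited p-values are not stated in them. The peak lists hold, as the authors deposited them, a score, a fold enrichment (a ratio of ChIP to background), −log10 p and −log10 q, and a summit offset per peak. Per the file headers, the table holds LV and RV signal, a log2 ratio of RV over LV, and at each WT peak an unadjusted and an adjusted p-value.

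Knockout overlap, chains and nearest genes were computed as the report describes. The LV and RV signal equals an offset of 0.5 plus a mean of 2 libraries, each with its own constant per read (0.744 and 1.47 for LV, 0.866 and 0.965 for RV), which gave 1 solution in whole reads at 100% of peaks (tolerance 1e-07). The normalized reads were summed per chain, and log2 of reads plus a pseudocount of 1 was compared between ventricles with limma 3.58.1 (mean-variance trend, R 4.3.3) over all 17587 peaks and all 12701 chains, with Benjamini-Hochberg adjustment over each whole table. The scripts were tested on simulated data. Intervals of shares are Wilson 95% intervals. Other steps used Python 3.11.15 with scipy 1.17.1, pandas 2.3.3 and numpy 2.4.6, and plots matplotlib 3.10.9.

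The members, the 16 gene lists and the tests were chosen with earlier results of these data known. Clusters named in the text are the 10 with most peaks (ties by summed fold enrichment), the 5 with the highest mean fold enrichment, the 5 with the smallest median gap, and the 5 with the smallest limma p on each side of LV against RV. Up to 5 genes per list with most clustered peaks are also named. Other genes named as examples were chosen after their values were seen. Alternatives changed the gap, the smallest chain, the knockout filter, the −log10 q minimum, the gene assignment, the pseudocount, the scaling, a minimum of reads and the libraries used. Input libraries and genome sequence of peaks were not used here. An item among the peaks nearest to the gap limit is not reported here.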

Additional observations from a re-analysis of the deposited data

How the results depend on the processing

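The number of clusters depends on how they are defined. It was 369 clusters with 1824 peaks and 53 listed genes, and became 121, 546 and 21 with summits at most 5000 bp apart, 762, 4079 and 86 with 25000 bp, 949, 3564 and 84 with chains of 3 or more, 171, 1032 and 35 with chains of 5 or more, and 145, 673 and 24 with only peaks of −log10 q of at least 5. Keeping the peaks shared with the knockout gave 374 clusters, and removing only WT peaks with most of their length inside a knockout peak gave 371. Clustered peaks within 1000 bp of a gene end (14.5%) were 19.8% at 5000 bp and 11.1% at −log10 q of at least 5, and peaks above the median fold enrichment of all peaks (52.2%) were 47.8% and 55.4%. Clusters with all peaks on the same side of LV against RV (10.8%) were 19.9% with chains of 3 or more, 5.85% with 5 or more and 14.5% at −log10 q of at least 5. By list, genes at a cluster moved by more than 1.5 times as follows. With 5000 bp, there were 4 transcription factor, 9 sarcomere, 2 calcium and channel, 1 trabecular, 1 compact, 1 TGF-beta and BMP, 0 ventricle identity and 0 metabolism genes. With 25000 bp, there were 20 transcription factor, 5 trabecular, 6 compact, 5 ventricle identity, 2 Notch, 5 coregulator and 2 neuronal genes. Chains of 3 or more gave 16 transcription factor, 9 calcium and channel, 4 compact, 4 Notch and 6 coregulator genes, and 1 each of the neuronal, endothelial, and epicardial and mesenchymal lists. Chains of 5 or more gave 6 transcription factor, 1 ventricle identity, 3 TGF-beta and BMP, 1 coregulator and 2 metabolism genes. At −log10 q of at least 5 there were 4 transcription factor, 10 sarcomere, 2 calcium and channel, 0 trabecular, 1 compact, 1 ventricle identity, 2 TGF-beta and BMP, 1 coregulator and 3 metabolism genes. Counting any gene within 50000 bp gave 8 calcium and channel, 5 ventricle identity and 1 endothelial gene, and the nearest gene within 10000 bp gave 1 compact gene.

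For LV against RV, limma called 0 clusters and 0 clustered peaks, and 1 peak (Gab1) with a pseudocount of 5, beside 14 of all peaks. With each library left out in turn, calls ranged from 0 to 10 per peak (10 without LV library A, beside 90 of all 17587 peaks, and 1 without LV library B, beside 22) and from 0 to 1 per cluster (1, Ywhaz, without LV library B, beside 21 of all 12701 chains). These member counts are near the background. The smallest adjusted p per cluster ranged from 0.0131 to 0.995 over all settings. The cause was not tested. No paired analysis was possible because the LV and RV columns carry no replicate numbers. With 2 libraries per ventricle and a median of 36 to 79 reads per cluster, the median SE per cluster was 0.26 on the log2 scale, and this limits the precision.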
